A study of Mus musculus with 2 samples.

Results

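The genes described here encode miRNAs that are best known from neurons: the Mir9, Mir137, Mir138, Mir128 and Mir129 families. They were chosen by name, as the 10 mouse genes Mir9-1, Mir9-2, Mir9-3, Mir137, Mir138-1, Mir138-2, Mir128-1, Mir128-2, Mir129-1 and Mir129-2. Of these, 9 are rows among the 1973 miRNA genes of the count tables. Mir9-1 is not a row of these tables and was not analysed here. The tissue was whole stomach of healthy B6NCrl mouse embryos of mixed sex at 15.5 days, and RNA under 30 nt was sequenced. Replicate 1 pooled 78 embryos and replicate 2 pooled 62 embryos. The pools form 1 group, with no treatment and no second genotype, and the labels give the same donor identifier to both. Comparisons are therefore between families, between numbered copies of a miRNA and between the pools, and a p-value measures only the difference between these 2 libraries.

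The stomach wall holds the enteric nervous system, neurons and glia that descend from neural crest cells and that have colonised the stomach before this stage. A miRNA is cut from a hairpin precursor as a duplex of a 5p and a 3p arm. Bases 2 to 8 of the arm that is loaded into Argonaute, called the seed, pair with target mRNAs. In the brain miR-9 acts in neural progenitors and their differentiation, miR-137 in neuronal maturation, miR-138 in the size of dendritic spines, and miR-128 and miR-129 in neuronal excitability. Several of these miRNAs are made from more than 1 locus. Each locus then has its own promoter but can yield the same mature RNA.

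The mature sequences decide which reads can be assigned to 1 copy, so they are shown first (RefSeq, GRCm38.p6; 10 of 10 genes matched by symbol). Capitals mark the seed. The arms shared by copies are:
miR-9-5p (Mir9-1, Mir9-2 and Mir9-3): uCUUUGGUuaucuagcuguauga
miR-9-3p (Mir9-1, Mir9-2 and Mir9-3): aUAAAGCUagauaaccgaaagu
miR-138-5p (Mir138-1 and Mir138-2): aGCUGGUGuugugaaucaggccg
miR-128-3p (Mir128-1 and Mir128-2): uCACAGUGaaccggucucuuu
miR-129-5p (Mir129-1 and Mir129-2): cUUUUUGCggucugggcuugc

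Mir137 stands apart, since neither of its arms is found in another hairpin of the table:
miR-137-5p: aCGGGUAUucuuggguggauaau
miR-137-3p: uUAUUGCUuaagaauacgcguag

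The 10 genes list 19 arms of 21 to 23 nt, which come to 12 distinct sequences. Of the 19 arms, 7 occur in 1 hairpin only. No arm printed so far shares its seed with a differently named mature miRNA of the table.

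The second arm of the paired copies differs between them and is what sets the copies apart. Here capitals mark the differing bases, and positions are counted from 1 at the 5′ end of the first arm named:
miR-128-1-5p: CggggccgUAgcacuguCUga
miR-128-2-5p: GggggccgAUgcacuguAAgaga
miR-138-1-3p: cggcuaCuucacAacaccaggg
miR-138-2-3p: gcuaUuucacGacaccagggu
miR-129-2-3p: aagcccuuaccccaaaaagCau
the same stretch of the Mir129-1 hairpin: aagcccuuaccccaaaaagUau

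Over 21 aligned bases the miR-128 5p arms differ by 5 substitutions, C1G, U9A, A10U, C18A and U19A. Bases 2 to 8 are the same in both, so these arms share the seed GGGGCCG. Over 20 aligned bases the miR-138 3p arms differ by C7U and A13G. The miR-129 3p stretches differ by 1 substitution in 22 bases, C20U. In the Mir9 family no listed arm differs between copies. The hairpins of Mir9-2 and Mir9-3, with the arms in capitals, show that they differ in the loop and the flanks only:
Mir9-2: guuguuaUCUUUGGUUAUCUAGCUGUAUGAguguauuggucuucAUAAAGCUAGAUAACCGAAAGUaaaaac
Mir9-3: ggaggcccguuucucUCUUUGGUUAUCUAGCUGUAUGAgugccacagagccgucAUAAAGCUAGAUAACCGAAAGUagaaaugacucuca

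The libraries held 5988677 sense-strand miRNA gene counts in replicate 1 and 6675498 in replicate 2. Levels are given as CPM, the count scaled to a common total of these sense counts. A gene with 0 counts can stand at up to 0.501 CPM in replicate 1 and 0.449 CPM in replicate 2, by a limit of 3 counts. Reads matching several places form a separate line of the tables, 2946663 and 3406967 reads, and are in no gene's count. They were 289 times the summed counts of the 9 genes in replicate 1 and 344 times in replicate 2. How many of them belong to these genes is not given. Levels of copies that share arms are therefore levels of the reads placed at 1 locus, not of the mature miRNA. The counts are per gene and do not separate the 5p from the 3p arm.

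Markers of stomach muscle and epithelium stood high in both pools. The smooth muscle pair Mir143 and Mir145a summed to 178423 and 183398 CPM, and the 5 epithelial genes of the miR-200 family to 43502 and 43188 CPM. Mir124a-1, Mir124a-2 and Mir124a-3, the loci of miR-124, the most neuron-restricted of the common brain miRNAs, had 0 sense counts in both libraries. Their sequences were not used here, and reads that fit several loci alike are in no gene's count. Of 21 other genes known from neurons and glia, given further on and including the Mir124a loci, 18 had sense counts, beside 726 of all 1973 genes. The counts come from whole stomach and do not show which cells made them. In such bulk RNA, fewer cells of a type and less RNA per cell cannot be told apart.

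The 9 genes together held 10196 counts in replicate 1 and 9917 in replicate 2. This was 1703 and 1486 CPM, or 0.159% ± 0.0153 of all miRNA gene counts (SD, n = 2). Mir137 alone made up 78.3% of their counts in replicate 1 and 77.3% in replicate 2. The Mir138 pair followed with 13.4% and 15.0%, the Mir128 pair with 4.84% and 6.57%, the Mir129 pair with 3.28% and 1.02%, and the Mir9 copies with 0.186% and 0.182%. The order of the families was the same in both libraries. The ranges of neighbouring families did not overlap. The families were not counted alike, since reads that fit several copies are left out and only Mir137 shares no arm. The Mir9 value also lacks Mir9-1. The step from Mir137 to Mir138 was 5.82-fold and 5.17-fold, and that from Mir138 to Mir128 was 2.78-fold and 2.27-fold. The step from Mir128 to Mir129 depended on the pool, at 1.48-fold in replicate 1 and 6.46-fold in replicate 2. So did that from Mir129 to Mir9, at 17.6-fold and 5.61-fold. CPM was not divided by length, since arms of 21 to 23 nt are read whole.

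**Figure D1:**
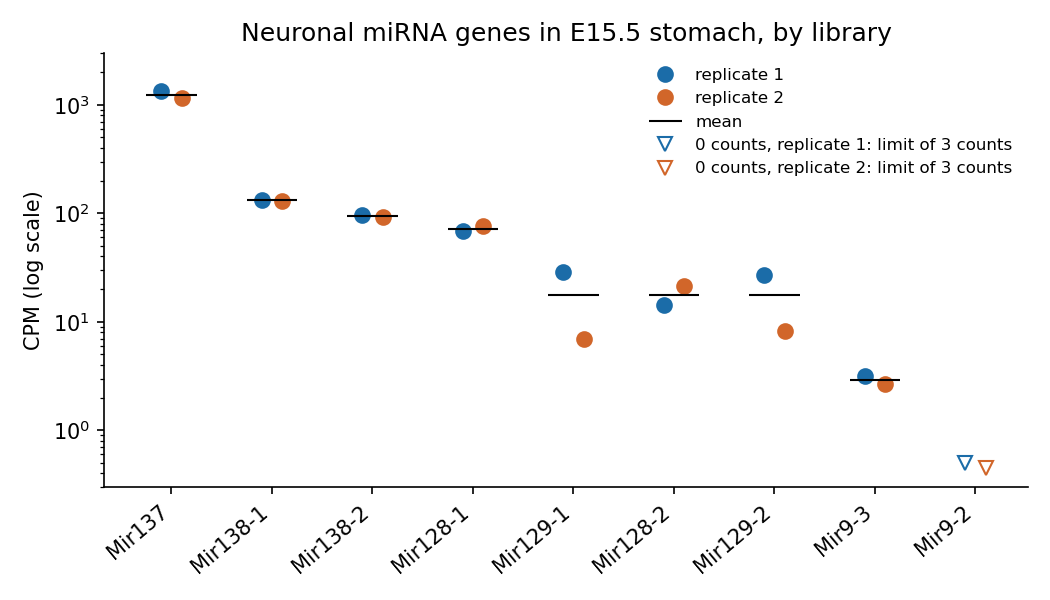
CPM (log axis) of the 9 listed genes, ordered by mean. Points are the 2 libraries, black bars their mean, and open triangles mark the limit of 3 counts for Mir9-2, which had 0 counts. Mir137 stands far above Mir138-1, and the libraries are farthest apart at Mir129-1 and Mir129-2.

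Mir137 was the leading gene and the only miRNA here with a single copy. It lies on chromosome 3 from 118433857 to 118433929 (plus strand, mm10), in an exon of the noncoding transcript Gm26871. It had 7979 counts in replicate 1 and 7663 in replicate 2, that is 1332 and 1148 CPM, with a mean of 1240 ± 130 CPM (SD, n = 2). By library totals replicate 2 was the lower by 1.16-fold (95% exact interval 1.12 to 1.20, counting error only). That put it at rank 89 of the 1973 genes. Its hairpin, with both arms in capitals, is printed for comparison with those of Mir9:
Mir137: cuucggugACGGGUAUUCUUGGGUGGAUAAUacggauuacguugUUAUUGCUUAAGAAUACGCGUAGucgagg

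The Mir138 copies were the next highest and nearly even. Mir138-1 lies on chromosome 9 from 122682876 to 122682974 (plus strand) in an exon of the transcribed pseudogene Gm47135. Mir138-2 lies on chromosome 8 from 94324311 to 94324381 (plus strand) in an exon of the noncoding gene C78859. Mir138-1 had 792 and 870 counts, 132 and 130 CPM. Mir138-2 had 579 and 613 counts, 96.7 and 91.8 CPM. Both values of Mir138-1 lay above both of Mir138-2. Mir138-1 took 57.8% of the pair's counts in replicate 1 (95% exact interval 55.1 to 60.4) and 58.7% in replicate 2 (56.1 to 61.2). The log2 ratio of the copies, on the CPM + 1 scale, was 0.47 ± 0.04 (SD, n = 2).

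The Mir128 copies were the most unequal pair with counts at both loci. Mir128-1 lies on chromosome 1 from 128202361 to 128202430 (plus strand) in an intron of the protein-coding gene R3hdm1. Mir128-2 lies on chromosome 9 from 112118636 to 112118711 (minus strand) in an intron of Arpp21, a gene known for its expression in neurons. Mir128-1 had 408 and 510 counts, 68.1 and 76.4 CPM. Mir128-2 had 85 and 142 counts, 14.2 and 21.3 CPM. The copy in R3hdm1 was thus counted 4.80 times as often as that in Arpp21 in replicate 1 and 3.59 times in replicate 2. Its share was 82.8% (79.1 to 86.0) and 78.2% (74.9 to 81.3), and the log2 ratio was 1.99 ± 0.27 (SD, n = 2).

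The Mir129 copies were counted at nearly the same level as each other. Mir129-1 lies on chromosome 6 from 29022619 to 29022691 (plus strand) in an exon of the noncoding gene Gm3294. Mir129-2 lies on chromosome 2 from 94241364 to 94241453 (minus strand) in an intron of the noncoding gene Mir670hg. Mir129-1 had 172 counts in replicate 1 and 46 in replicate 2, 28.7 and 6.89 CPM. Mir129-2 had 162 and 55 counts, 27.1 and 8.24 CPM. Both loci were high in replicate 1 and low in replicate 2. Mir129-1 took 51.5% of the pair (46.0 to 57.0) and 45.5% (35.6 to 55.8), intervals that both include an even split.

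The Mir9 copies were at or near the lower limit. Mir9-3 lies on chromosome 7 from 79505264 to 79505353 (plus strand) in an intron of its host Mir9-3hg. Mir9-2 lies on chromosome 13 from 83738814 to 83738885 (plus strand) in an exon of the noncoding gene C130071C03Rik. Mir9-3 had 19 and 18 counts, 3.17 and 2.70 CPM. Mir9-2 had 0 counts in both libraries. The Mir9-3 count was 6.33 times the limit of 3 counts in replicate 1 and 6 times that limit in replicate 2. By counting error alone, the exact interval for the Mir9-2 share of the pair reached 17.6% in replicate 1 and 18.5% in replicate 2. Both mature arms are the same in these hairpins, and reads that fit several copies are left out. The counts therefore do not bound the difference between the loci. Mir9-1 lies on chromosome 3 from 88215598 to 88215686 (plus strand) in an intron of the noncoding gene Gm3764.

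Among single genes the order was Mir137, Mir138-1, Mir138-2 and Mir128-1, then Mir129-1, Mir128-2 and Mir129-2, then Mir9-3. Mir129-1 (17.8 ± 15.4 CPM), Mir128-2 (17.7 ± 5.01 CPM) and Mir129-2 (17.6 ± 13.3 CPM) overlapped in range and cannot be ordered (SD, n = 2). Each other gene was separated from its neighbours in both libraries.

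**Figure D2:**
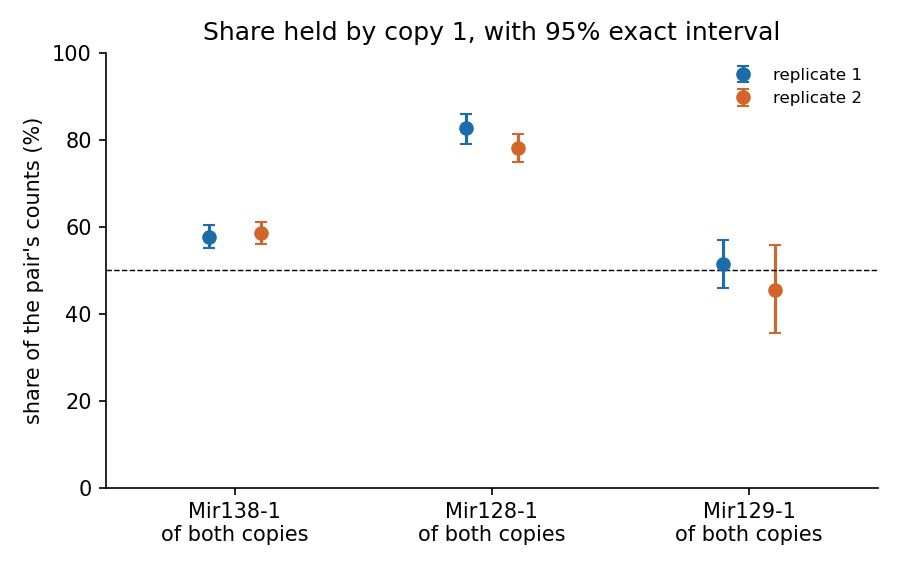
Share (%) of a pair's sense counts held by copy 1 in each library, with 95% exact intervals that cover counting error only. The dashed line marks an even split. Mir138-1 held 57.8% and 58.7%, Mir128-1 82.8% and 78.2%, and Mir129-1 51.5% and 45.5%.

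The ratio of copies did not differ between the pools by the test. Fisher's exact test (two-sided) asked whether the ratio was the same in both libraries, for the 4 pairs of listed copies, with Benjamini-Hochberg adjustment over them. It passed 0 of the 4 pairs, and 0 at an unadjusted p under 0.05. The lowest exact p was that of Mir128-1 and Mir128-2 (p = 0.0613, adjusted p = 0.245), followed by the Mir129 pair (p = 0.309, adjusted 0.617) and the Mir138 pair (p = 0.649, adjusted 0.865). The Mir9 pair gave an exact p = 1, since Mir9-2 had no counts. The other 2 pairs of Mir9 copies could not be tested without Mir9-1. A p that misses the threshold does not show equal ratios.

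Between the pools the Mir129 family differed and the other families differed little. Every gene with at least 10 summed counts was tested by a two-sided exact binomial test on the library totals, adjusted by Benjamini-Hochberg over all 466 genes tested. A gene was called at an adjusted p under 0.05 with a log2 ratio of CPM + 1 of at least 1 in size. Of the 9 genes, 8 had enough counts and Mir9-2 did not. Lower in replicate 2 were 2 of the 8, Mir129-1 and Mir129-2, against 5.15% of all tested genes; higher were 0 of the 8, against 0.644%. In either direction 5.79% of all tested genes were called. These 2 calls are copies of 1 miRNA that share an arm.

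Mir129-1 had a log2 ratio of -1.91, and its level was 4.17-fold lower in replicate 2 (95% exact interval 2.99 to 5.90; exact test, adjusted p = 6.58e-21). Mir129-2 had a log2 ratio of -1.60, and was 3.28-fold lower (2.40 to 4.54; adjusted p = 1.50e-15 by the same exact test). The 2 intervals overlap. Summed over both copies the family went from 334 to 101 counts, 3.69-fold lower (2.94 to 4.65). With edgeR's exact test, which takes the spread over all genes between these pools as error, Mir129-1 kept an adjusted p of 0.0172 and Mir129-2 had 0.0785. By that test 1 of the 8 genes was called lower, against 4 of all 466 (0.858%).

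No other member passed the fold limit. With no fold limit 4 of the 8 genes had an adjusted p under 0.05 by the exact test, beside 216 of all 466 (46.4%), a share near the background. Mir128-2 stood at a log2 ratio of 0.55 in replicate 2 over replicate 1, a ratio of 1.5 (1.14 to 1.98; adjusted p = 0.00824 by the exact test). Its partner Mir128-1 stood at 0.16, a ratio of 1.12 (0.983 to 1.28), so that the Mir128 pair as a whole had a ratio of 1.19 (1.05 to 1.34). With edgeR's TMM scaling Mir128-2 stood at 0.70 and Mir128-1 at 0.32 (adjusted p = 0.000547 and 0.00234 by the exact test). Mir137 stood at -0.21 (adjusted p = 6.69e-20 by the exact test, on 7979 and 7663 counts). Most of this depended on the scaling, since with TMM Mir137 stood at -0.06 (adjusted p = 0.0248 by the exact test). By edgeR's exact test neither Mir137 nor Mir128-2 had an adjusted p under 0.05. Mir9-3 stood at -0.17, a ratio of 0.850 (0.421 to 1.71), an interval that its low counts leave wide. Mir138-2 stood at -0.07 and Mir138-1 at -0.02. The sign of both Mir138 values depends on the scaling, since with edgeR's TMM they were 0.08 and 0.13.

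The median log2 ratio of the 8 tested genes was -0.12, beside -0.11 over all 466 genes. TMM moved the median of all genes by 0.11, to 0.00, and that of the 8 genes to 0.01. It also changed the calls over all genes from 24 lower and 3 higher to 16 lower and 6 higher. Mir129-1 and Mir129-2 stayed called with TMM, at -1.77 and -1.46.

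**Figure D3:**
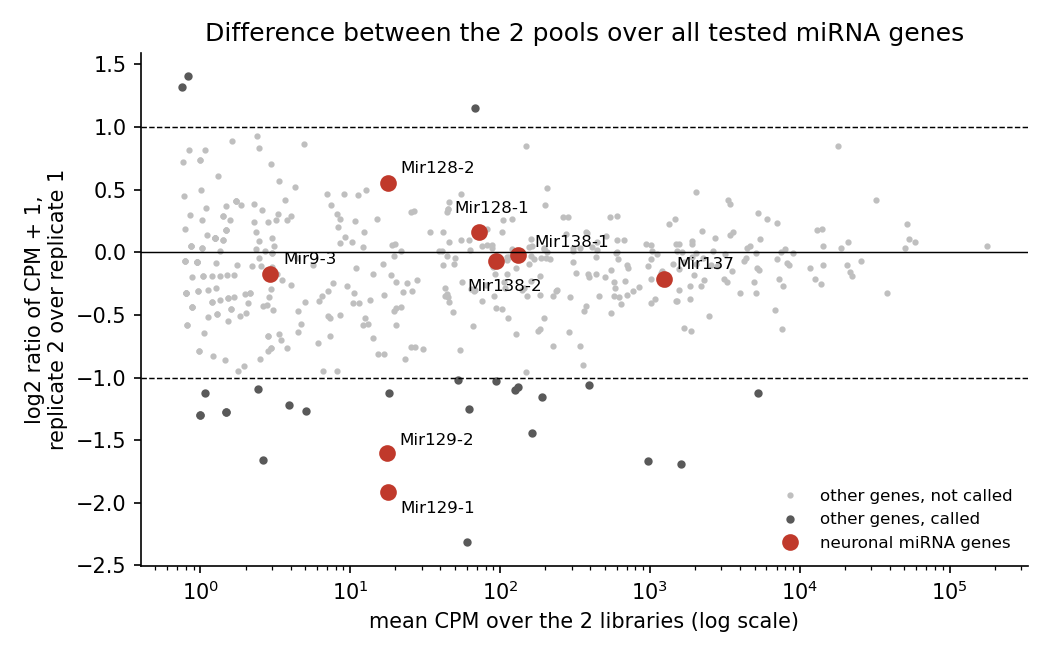
Log2 ratio of CPM + 1, replicate 2 over replicate 1, against mean CPM (log axis) for the 466 tested genes. Dashed lines mark the fold limit, dark grey points other called genes and red points the 8 tested neuronal miRNA genes. Mir129-1 and Mir129-2 lie at -1.91 and -1.60, and the other 6 between -0.21 and 0.55.

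Markers of red cells and liver moved in the direction of the Mir129 pair. So did further genes among the 24 of 466 called lower, such as Mir196a-2 at a log2 ratio of -2.32 and Mir196b at -1.66. Mir122, the hepatocyte miRNA, stood at 2445 CPM in replicate 1 and 757 CPM in replicate 2, 3.23-fold lower. The 3 red cell genes Mir451a, Mir144 and Mir486 summed to 727 and 345 CPM, and all 3 were called lower. The 3 acinar pancreas genes Mir216a, Mir216b and Mir217 had few counts, summed to 5.84 and 3.75 CPM, and did not move together. Mir216a was called lower, at 11 against 2 counts. Mir216b had 5 against 9 counts and Mir217 19 against 14, and neither was called. Mir375, of endocrine cells, stood at 12876 and 23221 CPM, higher in replicate 2. The part of these cells in the Mir129 difference was not tested. The endothelial Mir126a (26216 and 25041 CPM) and the white cell Mir223 (1247 and 1112 CPM) moved little.

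Other miRNA genes known from neurons and glia were compared as a list of 21, all of which are rows of the tables. Of these 17 were tested, and 0 were called in either direction, against 5.79% of all tested genes. By edgeR's exact test 0 were called, against 0.858% of all tested genes. Both counts are near the background. At an adjusted p under 0.05 with no fold limit the exact test passed 7 of the 17, beside the same 46.4% of all tested genes. Their median log2 ratio was -0.18 and the range -0.73 to 0.40. The list summed to 2918 and 2763 CPM, above the 1703 and 1486 CPM of the 9 genes. Mir129-1 and Mir129-2 lay outside the range of the list.

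In level the list ran from Mir134 at 1225 ± 129 CPM (SD, n = 2), an activity-dependent miRNA of dendrites that lies in the imprinted Dlk1-Dio3 region, down to 0. Mir7b followed at 601 ± 28.5 CPM and Mir132, induced by neuronal activity, at 275 ± 19.5 CPM. Mir212, transcribed with Mir132, stood at 26.0 ± 4.11 CPM. Mir7-1 (206 CPM), Mir330 (157 CPM) and Mir338 (102 ± 22.8 CPM), known from oligodendrocytes, came between them. Mir218-2, Mir7-2, Mir383, Mir153, Mir384, Mir326, Mir219a-1 and Mir218-1 lay between 15.2 and 45.7 CPM. Mir488 (6.10 CPM) and Mir219a-2 (4.47 CPM) were near the lower end, and Mir873a had 3 counts in each library. The lowest ratio was that of Mir488, with 47 and 29 counts, and the highest that of Mir7-2, with 233 and 345 counts.

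Genes most like the members in level were found by the distance of log2(CPM + 1) over the 2 libraries, which is a weak measure with 2 samples. Nearest to Mir137 were Mir134 (distance 0.02) and Mir154 (0.06). Nearest to Mir138-1 were Mir673 (0.10) and Mir199a-2 (0.19), to Mir138-2 Mir5099 (0.08) and Mir539 (0.09), and to Mir128-1 Mir3074-1 (0.12) and Mir412 (0.24). Mir128-2 was nearest to Mir218-1 (0.34) and Mir193a (0.39). Mir129-1 and Mir129-2 were each other's nearest gene (0.24), followed for both by the red cell gene Mir486 (0.64 and 0.40).

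The amount of sequence shared with other hairpins was compared with the counts of the 9 genes, as a description. Each hairpin was read in windows of 22 bases, about the length of a miRNA, and a window was called shared if it occurred in another hairpin of the RefSeq table. For Mir137 it was 0 of 52 windows. For Mir138-1 it was 3 of 78, for Mir138-2 3 of 50, for Mir128-1 2 of 49 and for Mir128-2 2 of 55. For Mir129-1 and Mir129-2 it was 5 of 52 and 5 of 69. Mir9-3 shared 9 of 69 windows and Mir9-2 24 of 51.

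Among the listed members, the gene with no shared window thus had the highest count, and Mir9-2, with 47.1% shared, had none. In the list of other neuronal genes, those with no shared window spanned a wide range of levels. They ran from Mir873a at 0.501 CPM in replicate 1 and 0.449 CPM in replicate 2 to Mir134 at 1317 and 1134 CPM. Among these genes a lack of shared windows went with low as well as high counts. The longest run of identical bases was 33 between Mir9-1 and Mir9-2, longer than any read of under 30 nt, and 26 between Mir9-2 and Mir9-3. It was 26 for the Mir129 pair, 24 for the Mir138 pair and 23 for the Mir128 pair. Among the members, Mir128-2 shared 3.64% of windows and Mir138-2 6%, with Mir138-2 the higher in counts. The part of shared reads in the low counts was not tested, since the tables do not trace reads that match several places to their loci.

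**Figure D4:**
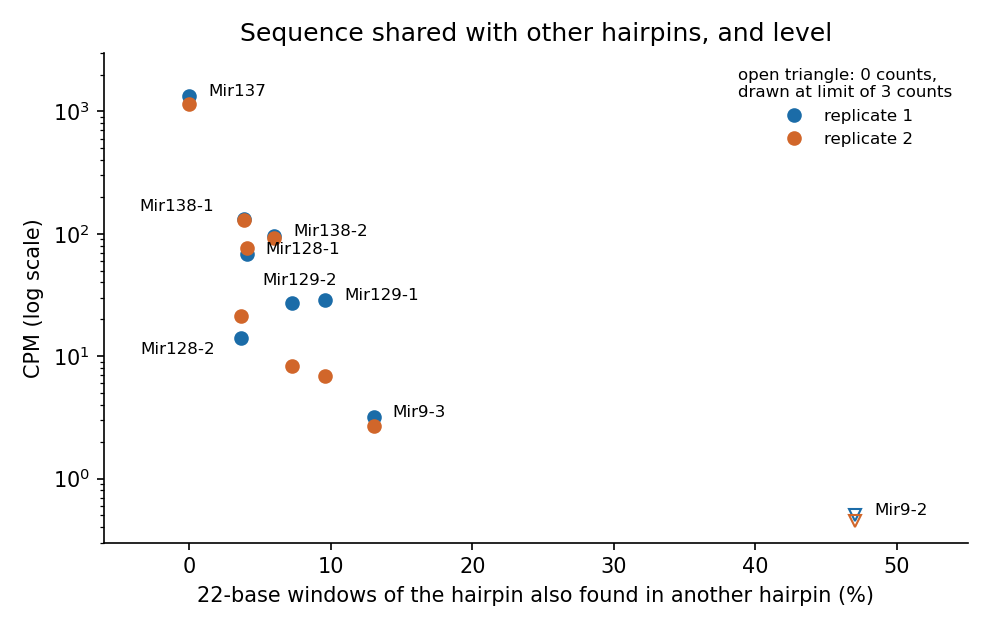
CPM (log axis) in each library against the share of 22-base hairpin windows (%) that also occur in another hairpin, for the 9 listed genes. Open triangles mark the limit of 3 counts for Mir9-2, which had 0 counts. Mir137 has no shared window and stands at 1332 and 1148 CPM, and Mir9-2 has 47.1% shared.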

How the data were processed

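Small RNA under 30 nt from 2 pools of embryonic mouse stomach was analysed. The authors deposited whole-number read counts per miRNA gene, for mm10 and GENCODE M4 per the deposited description files; aligner and counter: not given in the sources used here. No header names the columns. In every gene row the first count is the sum of the other 2, and the second was taken as the sense strand. Lines that name no gene (46.4% and 45.5% of reads) stayed out of totals. Symbols and positions came from GENCODE M21 (1894 of 1973 identifiers matched), sequences from RefSeq. A count of shared arms over all genes is void, since 869 of 1973 had a sequence.

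CPM, exact binomial and Fisher tests and 95% Clopper-Pearson intervals, which cover counting error only, were computed from the sense counts. With 1 group, no quasi-likelihood contrast exists. Named were all members, the listed neuronal and marker genes, hosts and, for members with at least 100 summed counts, the 2 nearest genes. Members and lists were chosen with earlier results of these data known. The test was tested on simulated data drawn with counting error only, which lack the spread between these pools. Alternatives used edgeR 4.0.16 and DESeq2 1.42.0 in R 4.3.3; other steps used Python 3.11.15 with scipy 1.17.1.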

Additional observations from a re-analysis of the deposited data

Results flagged for a closer look

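Some signal lay in data that the comparisons above do not use. Reads matching several places, which include any read that fits the shared arms equally at each locus, numbered 2946663 in replicate 1 and 3406967 in replicate 2. At the locus of Mir9-1, which is on the plus strand, the gene Gm25641 is listed on the minus strand. Its opposite-strand count was 10 in replicate 1, above the limit of 3 counts, and 2 in replicate 2. These reads therefore lie on the strand of Mir9-1, and they are in no Mir9 value above. On the strand opposite Mir129-2 lay 5 counts in replicate 1 and 1 count in replicate 2.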

How the results depend on the processing

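The 2 members called between the pools, Mir129-1 and Mir129-2, became 4 with no fold limit (46.4% of all genes), with Mir137 lower and Mir128-2 higher, and 1 with edgeR's exact test (0.858% of all genes). They stayed 2 with TMM and with DESeq2 size factors (4.72% of all genes with each). Totals without the 10 most abundant genes (5.79%) and both strands (5.88%) also gave 2. So did pseudocounts 0.5 (6.65%) and 5 (2.79%), a minimum of 100 counts (5.35%) and no minimum (4.13%). The 0 other neuronal genes called (5.79% of all genes) became 7 with no fold limit (46.4% of all genes). The summed level of 1594 CPM was 3408 CPM over totals without the 10 most abundant genes, a smaller denominator, and 1486 to 1703 CPM without either replicate. The Mir138 level of 226 CPM was 218 CPM with both strands in the totals. Without either replicate the Mir129 level was 15.1 to 55.8 CPM and its log2 copy ratio -0.23 to 0.08. The edgeR values per gene were added after the data were seen. No paired analysis was possible because both pools belong to 1 group. Counts of 19 and 18 left the ratio of Mir9-3 a wide interval.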
